A study of Homo sapiens with 12 samples.

Results

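The genes described here are 7 genes that take part in, regulate or are related to the making of S-adenosylmethionine (SAM), the methyl donor of the cell, or the removal of S-adenosylhomocysteine (SAH), the product left after the methyl group is transferred: MAT2A, MAT2B, METTL16, AHCY, AHCYL1, AHCYL2 and ADK. They were chosen by name, all 7 were found among the 23500 genes listed, each with 1 entry, and all 7 were among the 17162 genes with a summed count of at least 10 over the 12 libraries. RNA was sequenced from HEK293T cells, a methionine-dependent line derived from human embryonic kidney, and from R1, a methionine-independent clone selected from HEK293T cells. Each line was grown for 12 h in methionine medium (+Met) or in medium with homocysteine, the precursor of methionine, in its place (−Met+Hcy), with 3 libraries in each of the 4 groups. R1 stands for 1 selected clone, and its libraries carry R1 in their titles but HEK293T in the field for the cell line, where the titles were followed. The comparisons ask whether these genes respond to the exchange of methionine for homocysteine, and whether the dependent parent and the independent clone differ in that response.

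SAM is made from methionine and ATP by methionine adenosyltransferase, in most tissues outside the liver by the enzyme whose catalytic subunit is MAT2A and whose regulatory subunit is MAT2B. Once SAM has given up its methyl group, AHCY splits the resulting SAH, an inhibitor of methyltransferases, into homocysteine and adenosine. The reaction is reversible, and ADK, which phosphorylates adenosine to AMP, takes 1 of its products away. AHCYL1 and AHCYL2 resemble AHCY in sequence and are known as partners of the inositol trisphosphate receptor and of ion transporters. METTL16 is an RNA methyltransferase that acts on hairpins in the 3′ untranslated region (3′ UTR) of MAT2A RNA, and through these hairpins it is known to raise the splicing and stability of that RNA when SAM is scarce.

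The MAT2A RNA is shown first because METTL16 recognises it through a short motif. MAT2A (ENSG00000168906) lies on the plus strand of chromosome 2 of GRCh38 from 85539168 to 85545281. Its canonical transcript of 2817 bases in GENCODE release 44 has 9 exons. The motif TACAGAGAA was searched on the transcript strand, and it occurs 5 times, each time in the 3′ UTR within exon 9. A search with any base at the seventh position (TACAGANAA), added after the first matches had been seen, found 1 more site in the same exon. The 6 sites are printed 5′ to 3′ as DNA with 8 bases on either side and the motif in capitals.
MAT2A site 1, chr2:85543812-85543820, 40 bases after the stop codon: gcgtaggcTACAGAGAAgccttcaa
MAT2A site 2, chr2:85544599-85544607, 827 bases after the stop codon: tgatgtcaTACAGAGAAgtcacagg
MAT2A site 3, chr2:85544784-85544792, 1012 bases after the stop codon: ggtgtagcTACAGAGAAaccagctt
MAT2A site 4, chr2:85544899-85544907, 1127 bases after the stop codon: ggcgtaagTACAGAGAAgccatcac
MAT2A site 5, chr2:85545014-85545022, 1242 bases after the stop codon: aggtgtccTACAGAAAAaccttggg
MAT2A site 6, chr2:85545122-85545130, 1350 bases after the stop codon: tggtgtggTACAGAGAAgccagctt
Of 20033 canonical protein-coding transcripts, 3.33% hold TACAGAGAA at least once and 0.13% hold it at least 2 times. MAT2A and MUC16, with 5 matches each, hold the most. The looser motif TACNGAGAA is found in 6.18% of transcripts and adds no site in MAT2A, and TACAGANAA is found in 10.9%. The canonical transcripts of the other 6 genes hold none of these motifs. A match is a description of the letters and does not show that a site was bound or methylated in these cells.

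**Figure D1:**
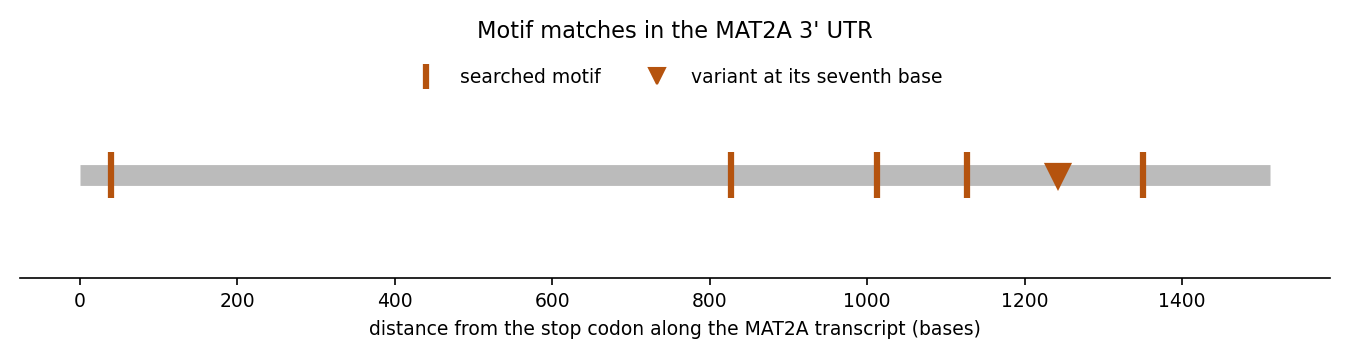
Positions of the motif matches along the 3′ UTR of MAT2A, with the distance from the stop codon in bases on the x axis. Bars are the 5 exact matches and the triangle is the match with another base at the seventh position, and 5 of the 6 lie between 827 and 1350 bases after the stop codon.

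Promoters were searched as well, in the RefSeq windows of GRCh38.p14 from 250 bases before to 50 bases after each start. All 7 genes had at least 1 window. The letters TGATGNAAN, to which C/EBP-ATF factors of the amino acid response are known to bind, occur in 3.61% of 35116 promoters on either strand, and among the 7 genes in 1 window of AHCYL2, where the match lies at base -138 from the start on the minus strand. The E-box CACGTG occurs in 7.26% of promoters and in no window of the 7 genes. No match says only that these letters are not in these windows.

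The total estimated count per library ran from 12664158 to 18771349. Counts of libraries of 1 group differed beyond sampling noise in each pair. The chi-square, divided by the number of genes, was 214 and 245 between R1 −Met+Hcy replicate 3 and the others of its group and 7.37 to 94.6 in the other pairs. The deviation of that library from the mean of the others of its group also fell with transcript GC content (Spearman's rho -0.744 across 11045 genes). In the other 11 libraries rho ran from -0.339 to 0.73. The values of 0.6 and 0.73 belong to R1 −Met+Hcy replicates 1 and 2, whose reference means include replicate 3. The library stayed in the fits, and the main fitted results that use it are followed by their values from the other 11. Counts relative to the library total are given as CPM. The 6 HEK293T markers each had an entry and summed to 70.9 to 94.9 CPM in HEK293T +Met, 124 to 178 in HEK293T −Met+Hcy, 77.6 to 102 in R1 +Met and 93.2 to 118 in R1 −Met+Hcy, so this sum was higher in −Met+Hcy in HEK293T cells. Most of it was NEFL, at 45.7 to 92.6 CPM over the 12 libraries, and NEFM, at 7.61 to 72.5. EYA1 had 3.38 to 21.1 CPM, PAX2 0.205 to 6.06, LHX1 0.411 to 3.94 and NEFH 0 to 1.60. The 8 markers of MDA-MB-468, the other parental line of the study, summed to 3.88 to 8.70 CPM in HEK293T and 9.62 to 21.8 CPM in R1 cells, mostly EGFR, with the keratins KRT5 and KRT6A at 0 in each library. The part of these marker levels in the results was not tested. Nothing in the labels says that the libraries of a group come from separate cultures, so p-values measure the spread between these libraries, which may be technical.

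Levels between genes were compared as CPM per kilobase of the canonical transcript. In +Met medium AHCY had the highest level of the 7 genes in both lines, 162 ± 12.2 CPM per kb in HEK293T cells and 154 ± 32.3 in R1 cells (SD, n = 3). MAT2A followed at 87.9 to 114 CPM per kb, MAT2B at 78.0 to 93.1 and ADK at 48.9 to 55.9 in HEK293T +Met libraries, and the libraries of MAT2A and MAT2B overlapped there and in R1 cells. AHCYL1 stood at 20.8 to 23.7, METTL16 at 7.41 to 9.34 and AHCYL2 at 0.806 to 1.66 CPM per kb. In −Met+Hcy medium MAT2A took the first place in both lines, at 354 ± 11.9 CPM per kb against 151 ± 20.5 for AHCY in HEK293T cells, with no overlap. In R1 cells the corresponding levels were 276 ± 93.6 and 115 ± 54.7 CPM per kb, and the ranges of 168 to 339 and of 55.6 to 163 did not overlap either. The order of the other genes was the same in all 4 groups, but in R1 cells MAT2B and ADK overlapped in both media, and AHCY and MAT2B overlapped in −Met+Hcy. MAT1A, the catalytic subunit of the liver enzyme, had 0 to 3 counts per library outside HEK293T −Met+Hcy, where it had 8 to 16, and did not pass edgeR's quasi-likelihood test in HEK293T cells (adjusted p = 0.279).

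**Figure D2:**
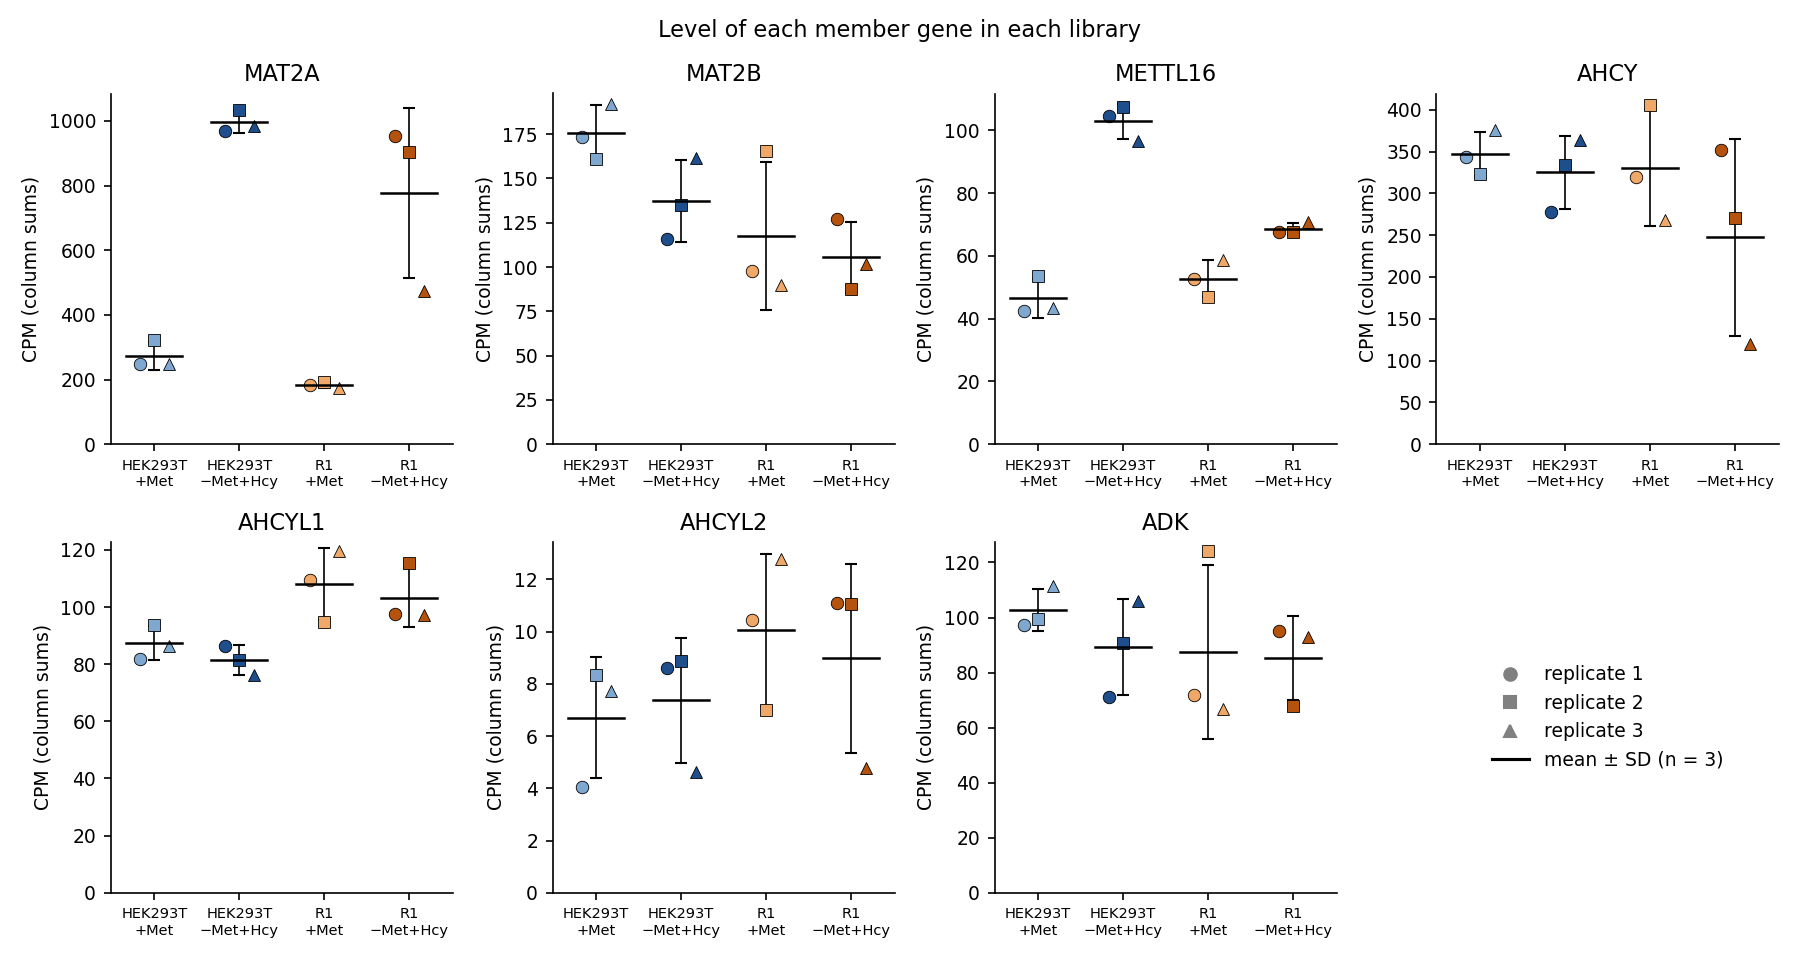
Level of each of the 7 genes in CPM (y axis, linear from 0) in the 4 groups (x axis), with 1 point per library, the shape for the replicate, a line for the mean and bars for the SD (n = 3). MAT2A libraries in −Met+Hcy medium lie above every +Met library in both lines, METTL16 is highest in HEK293T −Met+Hcy, and R1 −Met+Hcy replicate 3 is the lowest of its group for MAT2A and AHCY.

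In HEK293T cells, MAT2A and METTL16 rose when methionine was exchanged for homocysteine. MAT2A had 249, 322 and 248 CPM in the +Met libraries and 969, 1033 and 985 CPM in −Met+Hcy. Every −Met+Hcy library was over every +Met library, and the mean went from 273 ± 42.8 to 996 ± 33.4 CPM (SD, n = 3). METTL16 had 42.6, 53.6 and 43.4 CPM in +Met and 104, 107 and 96.7 CPM in −Met+Hcy, again without overlap. A change of 1 on the log2 scale is a doubling. The fitted log2 fold change was 1.58 for MAT2A (95% interval 1.12 to 2.04, adjusted p = 0.00204) and 0.85 for METTL16 (0.49 to 1.21, adjusted p = 0.0115), by the quasi-likelihood test of edgeR, adjusted by Benjamini-Hochberg across the 17162 genes. In bulk RNA a change in the RNA of each cell and a change in the mix of cells cannot be told apart. Of the 7 genes 2 passed at an adjusted p-value under 0.05, both upwards, against 7.03% of all genes tested (730 higher and 477 lower). With R1 −Met+Hcy replicate 3 left out, which acts on this comparison through the shared estimate of the spread, 3 of 7 passed against 27.7%. MAT2A passed under each of the 24 alternative fits, with values from 1.52 to 1.87. METTL16 missed the threshold when HEK293T −Met+Hcy replicate 2 or HEK293T +Met replicate 1 or 3 was left out (log2 fold changes 0.82, 0.81 and 0.82, adjusted p = 0.062, 0.0645 and 0.0643).

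The fitted values are lower than the plain ratios of CPM, because the TMM method gave the HEK293T +Met libraries factors of 0.828 to 0.882 and the other 9 libraries factors of 0.93 to 1.12. Scaling by column sums, an alternative added once the data had been seen, moved the median log2 fold change of all genes in HEK293T cells from 0.03 to 0.33 and the split of the called genes to 1790 higher and 213 lower. On that scale MAT2A was at 1.87 and METTL16 at 1.14, and both passed.

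None of the other 5 genes passed in HEK293T cells, and each had a fitted value below 0. MAT2B, the regulatory subunit, had 174, 161 and 192 CPM in +Met and 116, 135 and 162 CPM in −Met+Hcy, where 1 library lay within the +Met range. Its log2 fold change was -0.64 (95% interval -1.23 to -0.06, adjusted p = 0.182). AHCY had 344, 323 and 375 CPM in +Met and 277, 334 and 364 CPM in −Met+Hcy, which overlap, and a log2 fold change of -0.39 (adjusted p = 0.475). The catalytic and the regulatory subunit of the SAM synthase had fitted values of opposite sign, also under column sums, where MAT2B was at -0.35.
AHCYL1 had 81.9, 93.6 and 86.5 CPM in +Met and 86.5, 81.4 and 76.1 CPM in −Met+Hcy, and a log2 fold change of -0.40 (-0.73 to -0.06, adjusted p = 0.148). It was the gene that joined MAT2A and METTL16 when R1 −Met+Hcy replicate 3 was left out (adjusted p = 0.0288). It also passed downwards with DESeq2 (-0.40, adjusted p = 0.0237) and with the GC trend removed (-0.46, adjusted p = 0.0246), and under column sums its value was -0.10. ADK ranged from 97.3 to 111 CPM in +Met and from 71.0 to 106 CPM in −Met+Hcy, with a log2 fold change of -0.49 (adjusted p = 0.335). AHCYL2, the least expressed at 65 to 151 counts per library in HEK293T cells, had a log2 fold change of -0.16 with an interval of -0.96 to 0.64 (adjusted p = 0.843), which turned to 0.14 under column sums. With the 6 HEK293T libraries fitted alone, 5 of the 7 genes passed: MAT2A and METTL16 upwards, and MAT2B (adjusted p = 0.0122), AHCYL1 (0.0237) and ADK (0.0451) downwards, against 34.2% of all genes. Libraries of the media did not overlap for 2 of the 7 genes by CPM, against 48.4% of all genes tested.

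**Figure D3:**
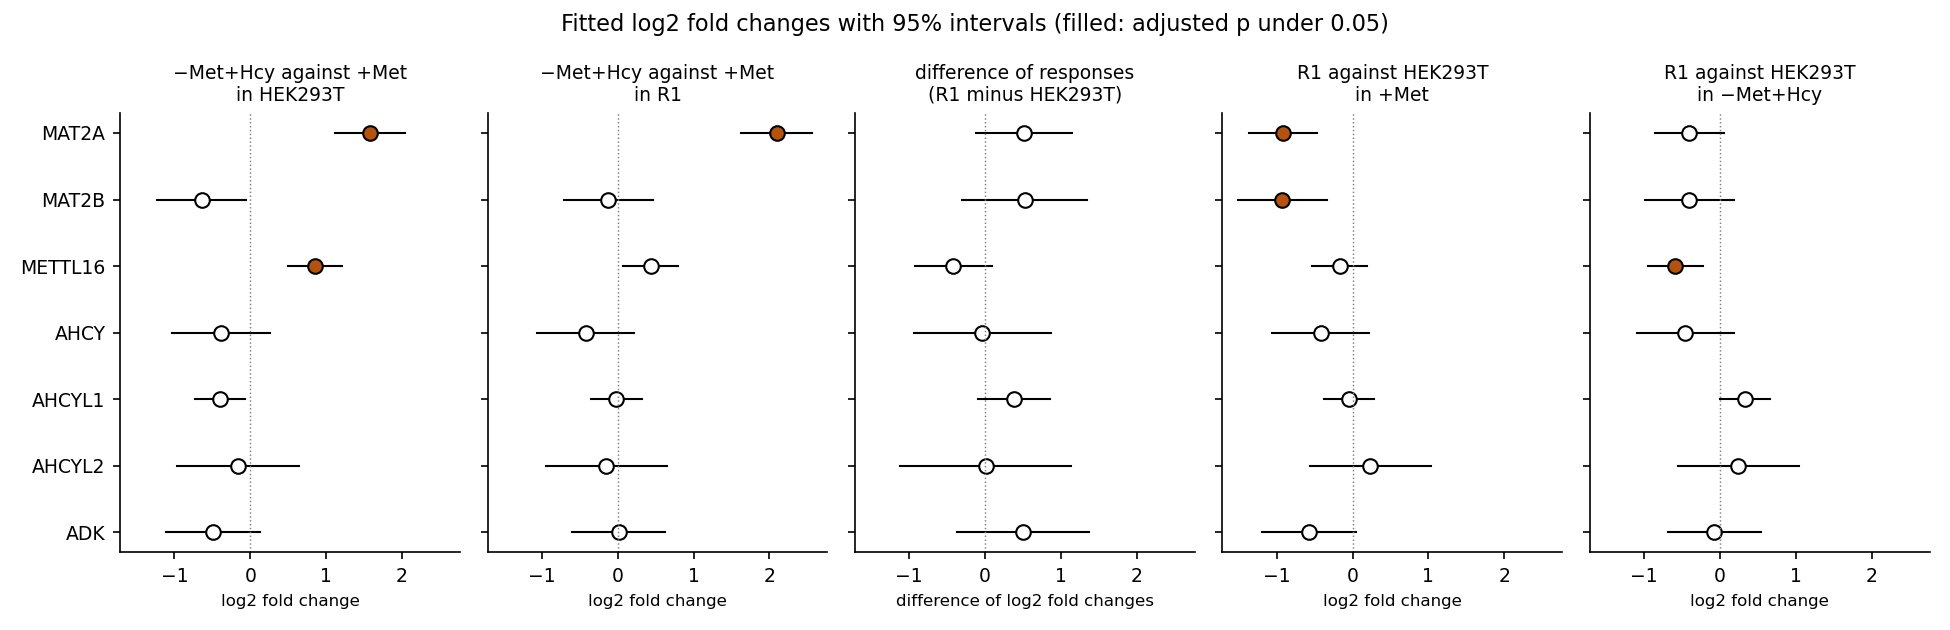
Fitted log2 fold change of each gene with its 95% interval (x axis, the same in all panels) in the 5 comparisons, with filled points at an adjusted p-value under 0.05. MAT2A lies at 1.58 in HEK293T cells and 2.09 in R1 cells, and no point is filled in the panel of the difference between these responses.

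In R1 cells MAT2A rose as well, and it was the single gene of the 17162 tested to pass, a background of 0.00583%. DESeq2 called 40 genes here, of the 7 only MAT2A. It had 184, 194 and 173 CPM in +Met and 955, 904 and 475 CPM in −Met+Hcy, with means of 184 ± 10.6 and 778 ± 264 CPM (SD, n = 3). The lowest of these −Met+Hcy values belongs to replicate 3 and is still over every +Met library of either line. The log2 fold change was 2.09 (95% interval 1.63 to 2.56, adjusted p = 0.00698), and without replicate 3 it was 2.29 (1.97 to 2.62, adjusted p = 3.9e-05), where 1 of the 7 genes passed against 0.0176% of all. With the trend on GC content removed from each library it was 2.03 (adjusted p = 0.00398). Leaving out R1 +Met replicate 1, 2 or 3 gave 2.09, 2.16 and 2.04 with adjusted p-values of 0.134, 0.0531 and 0.121, and the 6 R1 libraries alone gave 2.09 with an adjusted p-value of 0.952. The unadjusted p-value in that last fit was 0.000105.

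METTL16 in R1 cells had 52.5, 46.9 and 58.8 CPM in +Met and 67.5, 67.7 and 70.7 CPM in −Met+Hcy, 3 libraries close together and above all of +Met. Its log2 fold change of 0.43 (95% interval 0.07 to 0.79) did not pass the test over all genes (adjusted p = 0.622). The remaining 5 genes had log2 fold changes from -0.42 for AHCY to 0.01 for ADK, with adjusted p-values from 0.671 to 0.998. AHCY had 320, 405 and 268 CPM in +Met and 351, 271 and 120 CPM in −Met+Hcy. Its lowest value is again replicate 3, and AHCY has the highest GC content of the 7 transcripts, 55.5% against 37.3% to 47.6%. By CPM replicate 3 was also the lowest of its group for MAT2A, AHCYL1 and AHCYL2 (45.6% to 46.8% GC) and the highest for METTL16 (47.6%). For MAT2B and ADK it lay between the others. Without that library the log2 fold change of AHCY was -0.14, and with the GC trend removed it was -0.22. The part of base composition in these values was not tested further. In R1 cells 2 of the 7 genes, MAT2A and METTL16, did not overlap between media, against 10.1% of all genes tested.

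The responses of the lines were compared by the difference of their log2 fold changes, R1 minus HEK293T. None of the 7 genes passed, against 0.0583% of all genes (10 genes). At an unadjusted p-value under 0.05, 1659 of all genes and none of the 7 were found, and DESeq2 also called none of the 7. MAT2A had a difference of 0.51 (95% interval -0.12 to 1.15, adjusted p = 0.584), METTL16 one of -0.42 (-0.93 to 0.09, adjusted p = 0.575) and MAT2B one of 0.52 (-0.31 to 1.35, adjusted p = 0.675). These intervals reach values near a doubling, upwards for MAT2A and downwards for METTL16, so a miss of the threshold does not show that the lines responded alike.
Without R1 −Met+Hcy replicate 3 the difference was 0.71 for MAT2A (0.28 to 1.15, adjusted p = 0.0948) and -0.54 for METTL16 (-0.93 to -0.14, adjusted p = 0.156), against 1.69% of all genes called. With the GC trend removed in addition, also a later choice, MAT2A passed at 0.75 (adjusted p = 0.0436) and was the only one of the 7. Under column sums the MAT2A difference was 0.21 and the METTL16 difference -0.76 (adjusted p = 0.802 and 0.219). The size of each difference moved with the scaling, and its sign was the same in these fits.

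**Figure D4:**
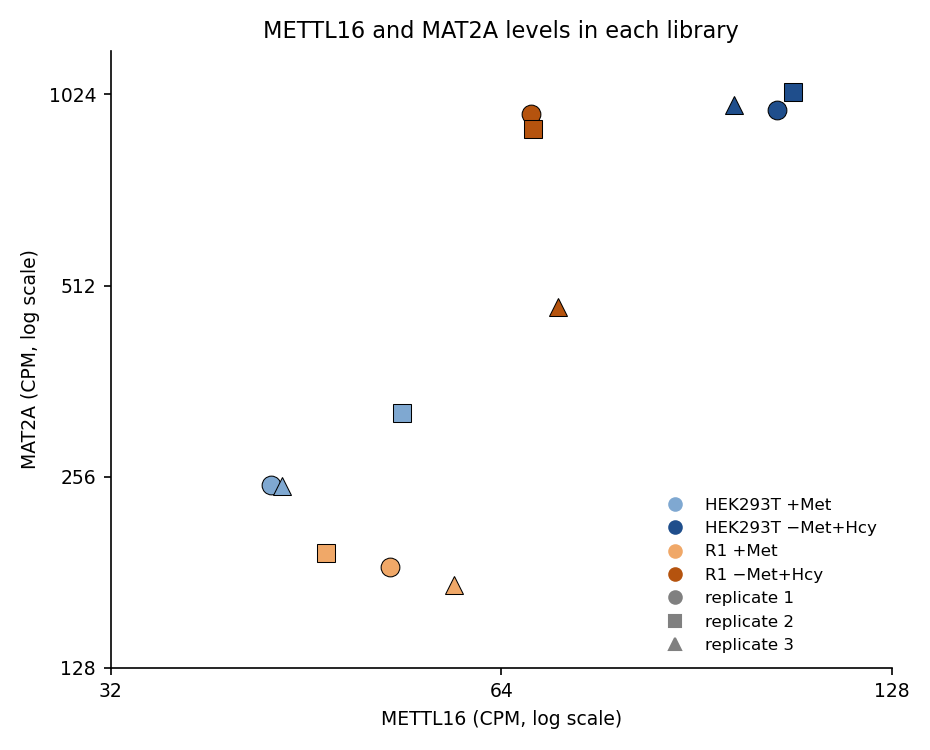
METTL16 (x axis) against MAT2A (y axis) in CPM on log scales, 1 point per library, with color for the group and shape for the replicate. HEK293T −Met+Hcy libraries lie at 96.7 to 107 CPM of METTL16 and R1 −Met+Hcy libraries at 67.5 to 70.7, while MAT2A reaches 969 to 1033 CPM in the first and 475 to 955 CPM in the second.

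The libraries fall into separate clusters by medium and line, so no correlation of METTL16 with MAT2A over the 12 is given. Within −Met+Hcy medium, the R1 libraries held less METTL16 than any HEK293T library, and R1 replicates 1 and 2 held 955 and 904 CPM of MAT2A against 969 to 1033 in HEK293T cells.

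R1 and HEK293T cells were then compared within each medium. In +Met medium MAT2A and MAT2B, both subunits of the SAM synthase, were lower in R1 cells by the fit. MAT2A had 173 to 194 CPM in R1 cells, under the 248 to 322 CPM of HEK293T cells, and a log2 fold change of -0.92 (95% interval -1.37 to -0.46, adjusted p = 0.0167). MAT2B had 97.8, 165 and 89.6 CPM in R1 cells against 174, 161 and 192 CPM in HEK293T cells, with replicate 2 of R1 within the HEK293T range, and a log2 fold change of -0.92 (-1.51 to -0.34, adjusted p = 0.0494). Of the 7 genes 2 passed, against 10.2% of all genes (976 higher and 769 lower), and without R1 −Met+Hcy replicate 3 again 2 passed, against 32.7%. AHCYL1 was at -0.05 and METTL16 at -0.17, with adjusted p-values of 0.886 and 0.562.
These values depend on scaling, and neither call was kept under column sums. Under column sums MAT2A was at -0.57 and MAT2B at -0.58 (adjusted p = 0.124 and 0.133), AHCYL1 turned to 0.31 and METTL16 to 0.18, and the calls over all genes split into 2251 higher and 357 lower with a median of 0.37, against a median of 0.02 after TMM. The CPM values of AHCYL1, 94.7 to 120 in R1 cells and 81.9 to 93.6 in HEK293T cells, do not overlap, while the fit gave it no difference past the threshold. MAT2A also lost its call without HEK293T +Met replicate 2 (log2 fold change -0.81, adjusted p = 0.07) and without R1 +Met replicate 1 or 3 (-0.91 and -0.86, adjusted p = 0.0802 and 0.0804). MAT2B lost it in 9 of the 12 fits without 1 library, namely each of the 6 HEK293T libraries, R1 −Met+Hcy replicate 1 and R1 +Met replicates 1 and 3, with adjusted p-values from 0.0578 to 0.201. Without R1 +Met replicate 2, the library with 165 CPM, it stood at -1.28 (adjusted p = 0.00844). MAT2B also lost its call with the replicate number as a block (adjusted p = 0.0932). RLE scaling, no filter and robust estimation lost it as well, and the losses came to 15 of 24 alternatives. By CPM, 2 of the 7 genes did not overlap between lines in +Met, AHCYL1 above and MAT2A below, against 47.2% of all genes tested.

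In −Met+Hcy medium METTL16 was lower in R1 cells, with a log2 fold change of -0.59 (95% interval -0.95 to -0.23, adjusted p = 0.0335). It was the 1 gene of the 7 to pass, against 14% of all genes tested. Without R1 −Met+Hcy replicate 3 it stood at -0.71 (adjusted p = 0.00224), again alone among the 7 and against 30.3%, and column sums gave -0.58 (adjusted p = 0.0335). Of the 12 fits without 1 library, 8 lost the call: those without HEK293T −Met+Hcy replicate 1, 2 or 3, HEK293T +Met replicate 1 or 3, R1 −Met+Hcy replicate 1 or 2, or R1 +Met replicate 1. Their values lay between -0.62 and -0.53 and their adjusted p-values between 0.0503 and 0.128. With the replicate number as a block the adjusted p-value was 0.069, and with only the 6 −Met+Hcy libraries 0.159. MAT2A, at -0.40 (-0.85 to 0.05, adjusted p = 0.215), and AHCYL1, at 0.33 (-0.0021 to 0.66, adjusted p = 0.172), did not pass. With R1 −Met+Hcy replicate 3 left out, MAT2A was at -0.20 (-0.53 to 0.12, adjusted p = 0.339) and AHCYL1 at 0.29 (adjusted p = 0.129). AHCYL1 had 97.2 to 115 CPM in R1 cells and 76.1 to 86.5 CPM in HEK293T cells. By CPM 3 of the 7 genes did not overlap, AHCYL1 above and MAT2A and METTL16 below, against 31.7% of all genes tested.

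Ratios of counts within a library do not depend on how libraries are scaled, and they set the members of the cycle against each other. The ratio of MAT2A to MAT2B counts was 1.43, 2.00 and 1.29 in HEK293T +Met and 8.36, 7.66 and 6.09 in HEK293T −Met+Hcy. In R1 cells it was 1.88, 1.17 and 1.93 in +Met and 7.52, 10.3 and 4.67 in −Met+Hcy. Every −Met+Hcy library of either line was over every +Met library. The mean log2 ratio was higher in −Met+Hcy by 2.24 in HEK293T cells and by 2.14 in R1 cells, and by 2.19 over both lines (two-sided exact permutation test within lines, p = 0.005, adjusted p = 0.0075 over 3 ratios). R1 −Met+Hcy replicate 3 had the lowest log2 ratio of its group, 2.22 against 2.91 and 3.37, and lowers the R1 value. The order of the lines in this ratio therefore rests on that library.
The ratio of MAT2A to AHCY counts was 0.724, 0.997 and 0.660 in HEK293T +Met and 3.49, 3.10 and 2.71 in −Met+Hcy. In R1 cells it was 0.577, 0.479 and 0.646 in +Met and 2.72, 3.33 and 3.97 in −Met+Hcy. In each +Met library AHCY thus had the higher count, and in each −Met+Hcy library MAT2A had. The log2 ratio was higher by 1.98 in HEK293T cells, by 2.55 in R1 cells and by 2.27 over both (exact permutation test, p = 0.005, adjusted p = 0.0075). R1 −Met+Hcy replicate 3, lowest of its group in both MAT2A and AHCY by CPM, had the highest ratio of its group here and raises the R1 value.
The ratio of AHCYL1 plus AHCYL2 to AHCY ran from 0.25 to 0.315 in HEK293T +Met and from 0.222 to 0.343 in −Met+Hcy, and from 0.251 to 0.495 and 0.309 to 0.853 in R1 cells. It differed by 0.24 on the log2 scale over both lines (exact permutation test, p = 0.43, adjusted p = 0.43), and by 0.05 without R1 −Met+Hcy replicate 3, which holds the value of 0.853. Within 1 line 3 libraries against 3 cannot give an exact p-value below 0.1. For both MAT2A ratios the exact permutation p-value was 0.1 in each line, and over both lines 0.005 is the smallest that the 400 arrangements can give.

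**Figure D5:**
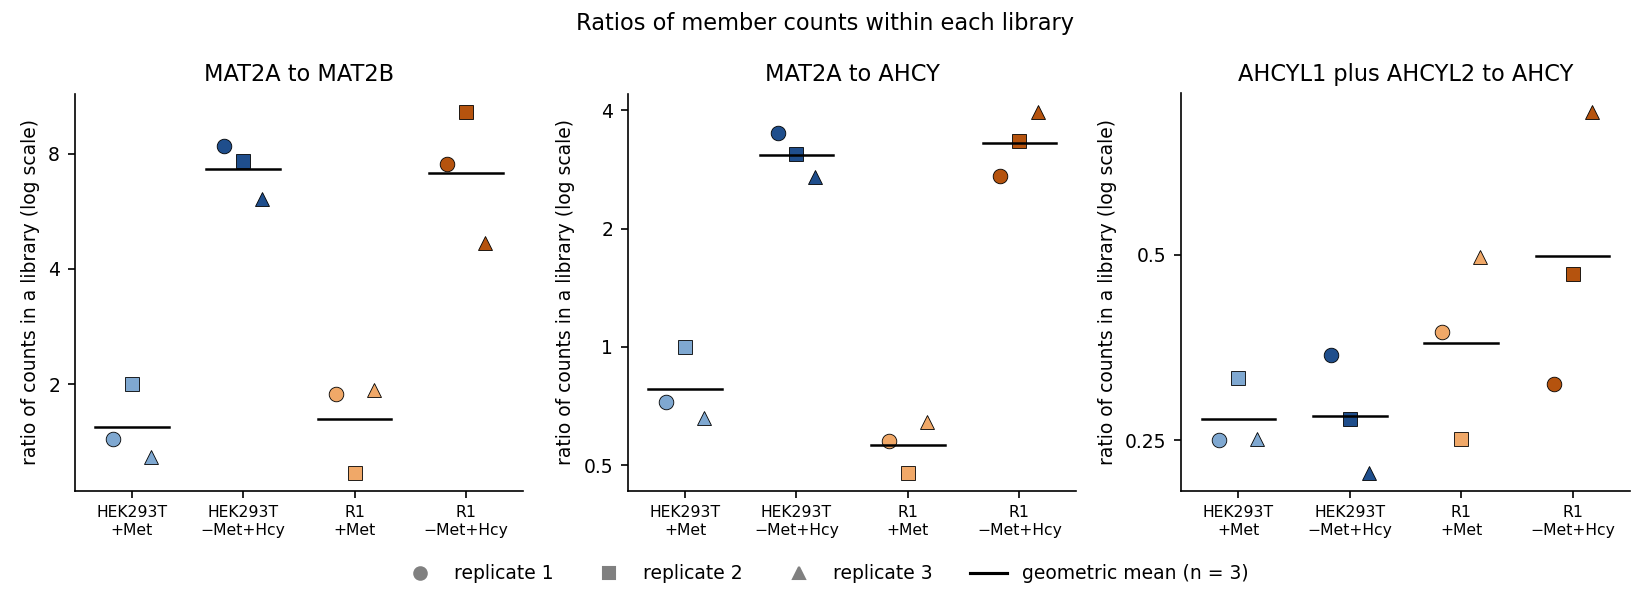
Ratios of counts within each library (y axis, log scale) for MAT2A to MAT2B, MAT2A to AHCY, and AHCYL1 plus AHCYL2 to AHCY in the 4 groups, with 1 point per library and a line for the geometric mean (n = 3). Both MAT2A ratios separate the media in both lines, from at most 2.00 to at least 4.67 and from at most 0.997 to at least 2.71, while the third overlaps between media.

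Genes around these 7 were counted in 5 lists. Of the methionine cycle and its branches, 8 of 10 genes could be tested, BHMT and BHMT2 being left out with at most 3 counts in any library. In HEK293T cells 1 of the 8 rose and none fell, with a median log2 fold change of 0.23 against 0.03 over all genes. That gene is CTH, which splits cystathionine into cysteine. CTH went from 18.6 ± 2.24 to 86.2 ± 6.37 CPM in HEK293T cells (log2 fold change 1.93, SE 0.169, adjusted p = 0.000226) and from 20.1 ± 1.23 to 24.6 ± 3.83 CPM in R1 cells (0.33, adjusted p = 0.622). The difference of these responses, -1.60, passed the test (adjusted p = 0.0459) but lost its call in 15 of 23 alternatives, the replicate block among them. CTH was lower in R1 than in HEK293T cells in −Met+Hcy (-1.84, adjusted p = 8.04e-05). MTRR, which reactivates methionine synthase, was lower in R1 cells in both media (-0.67 and -1.01, adjusted p = 0.0229 and 0.00193). SLC25A26, which carries SAM into mitochondria, was lower in −Met+Hcy (-1.05, adjusted p = 0.0435). In R1 cells none of the 8 passed for the medium, with a median of -0.25. Without R1 −Met+Hcy replicate 3, 2 rose in HEK293T cells, the second being MTRR (0.51, adjusted p = 0.00927), and none in R1 cells. In R1 cells the median of the list was then -0.00933. Leaving that library out raised the share of all genes called in HEK293T cells from 4.25% to 15.2% for higher and from 2.78% to 12.5% for lower genes, the background to read the counts of each list against. CTH in HEK293T cells and CTH and MTRR between lines in −Met+Hcy passed in all 24 alternatives. MTRR in +Met lost its call under column sums (-0.32, adjusted p = 0.168), with the block and without any of 5 single +Met libraries, and SLC25A26 lost its call in 12 alternatives, 9 of them without 1 library, and stood at -0.77 (adjusted p = 0.0294) without R1 −Met+Hcy replicate 3.

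Of the 8 genes of methionine salvage and polyamine synthesis, which consume SAM or recover methionine from it, 1 fell in HEK293T cells and none rose (median -0.50), and none passed in R1 cells (median -0.11). SMS, which makes spermine, went from 157 ± 2.56 to 81.5 ± 1.39 CPM in HEK293T cells (-1.24, adjusted p = 0.0109) and was at 154 ± 7.45 and 165 ± 48.5 CPM in the media of R1 cells (0.18, adjusted p = 0.787). The difference of these responses did not pass (1.42, adjusted p = 0.214), but without R1 −Met+Hcy replicate 3 it did (1.03, adjusted p = 0.013). In that fit the value of SMS in R1 cells turned to -0.21 (adjusted p = 0.815). Without that library 5 of the 8 fell in HEK293T cells, against 12.5% of all genes, and none passed in R1 cells. SMS in HEK293T cells lost its call without HEK293T −Met+Hcy replicate 1 or 2.
Between lines 4 of 8 were lower in R1 cells in +Met, with a median of -0.80, against a median of 0.02 and 4.48% called lower over all genes. They are AMD1, which makes the decarboxylated SAM used in polyamine synthesis (-1.88, adjusted p = 0.00761) and is named outside the rule after its value was seen, SRM, the spermidine synthase (-0.97, adjusted p = 0.00899), and ENOPH1 (-0.79, adjusted p = 0.0181) and MRI1 (-1.26, adjusted p = 0.0403), both enzymes of methionine salvage. In −Met+Hcy, SRM and MRI1 were lower in R1 cells (-0.94 and -1.14, adjusted p = 0.00796 and 0.0487) and SMS was higher (1.04, adjusted p = 0.0133). Without R1 −Met+Hcy replicate 3 these values were -0.76, -0.76 and 0.65, and each passed (adjusted p = 0.00187, 0.0064 and 0.00218). SRM in −Met+Hcy lost its call with the GC trend removed (-0.47, adjusted p = 0.272), also with the block, and with only the libraries compared, and SMS lost it with only the libraries compared and without any single HEK293T −Met+Hcy library (adjusted p of up to 0.114). AMD1 in +Met lost its call without R1 +Met replicate 1 (adjusted p = 0.0512) and in no other of 24 alternatives. In −Met+Hcy AMD1 was at -0.60 between lines (adjusted p = 0.28), and at -1.04 without R1 −Met+Hcy replicate 3 (adjusted p = 0.025). For the medium it was at 1.57 in R1 cells (adjusted p = 0.622) and at 0.30 in HEK293T cells (adjusted p = 0.668), and neither passed. Under column sums the +Met values were -0.62 for SRM, -0.44 for ENOPH1 and -0.91 for MRI1, and none of these 3 passed (adjusted p = 0.0781, 0.108 and 0.126). MRI1 lost its call in 10 of 24 alternatives in +Met, 8 of them without 1 library, and in 14 of 24 in −Met+Hcy. ENOPH1 in +Met lost its call in 5 alternatives, 4 of them without 1 library, and SRM in +Met only under column sums. With R1 −Met+Hcy replicate 3 left out, 7 of the 8 were lower in R1 cells in +Met, against 15.7% of all genes.

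Adenosine, the product of AHCY that ADK removes, has other routes, listed as 14 genes. In HEK293T cells 1 rose and none fell (median -0.41), and in R1 cells none passed (median -0.09). The gene that rose is AMPD3, an AMP deaminase, with 0 to 2 counts per library in HEK293T +Met and 10 to 19 in −Met+Hcy (adjusted p = 0.0289), so low that no fold change is given. In +Met, AMPD3 was higher in R1 cells, at 16 to 22 counts (adjusted p = 0.0165). ADA, adenosine deaminase, was lower there (-1.32, adjusted p = 0.00653). In −Met+Hcy none of the 14 differed past the threshold between lines. ADA kept its call in all 24 alternatives. AMPD3 in HEK293T cells lost its call without any single HEK293T library. With R1 −Met+Hcy replicate 3 left out, 1 rose and 5 fell in HEK293T cells, against 15.2% and 12.5% of all genes, and between lines in −Met+Hcy 1 was higher and 2 were lower in R1 cells, against 15.7% and 14.6%.

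Of 10 RNA factors linked to adenosine methylation and 3′ end processing, 1 rose and 1 fell in HEK293T cells (median 0.45), and none passed in R1 cells (median 0.13). YTHDF2, which binds methylated adenosine and promotes decay of the RNA, went from 169 ± 6.36 to 481 ± 15.1 CPM in HEK293T cells (1.21, adjusted p = 0.00139) and from 195 ± 5.76 to 236 ± 47.7 CPM in R1 cells (0.30, adjusted p = 0.622). It was lower in R1 than in HEK293T cells in −Met+Hcy (-1.06, adjusted p = 0.00105). METTL3, the catalytic subunit of the main methyltransferase for adenosine in messenger RNA, went from 118 ± 9.07 to 90.0 ± 0.816 CPM in HEK293T cells (-0.69, adjusted p = 0.0171). The differences of the responses were -0.91 for YTHDF2 and 0.70 for METTL3 and did not pass (adjusted p = 0.212 and 0.328). Without R1 −Met+Hcy replicate 3 that of YTHDF2 passed at -0.82 (adjusted p = 0.0326), and 5 of the 10 rose and 2 fell in HEK293T cells, against 15.2% and 12.5% of all genes. Both values of YTHDF2 passed in all 24 alternatives, and METTL3 lost its call under column sums (-0.39, adjusted p = 0.101), with the block and without any single HEK293T library. None of the 6 genes listed as partners of AHCYL1 passed in any of the 5 comparisons, with medians from -0.31 in HEK293T cells to 0.60 between lines in −Met+Hcy. Leaving out R1 −Met+Hcy replicate 3, 1 of the 6 fell in HEK293T cells and 1 was higher in R1 cells in −Met+Hcy, against 12.5% and 15.7% of all genes.

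The genes whose log2 CPM followed that of MAT2A most closely over the 12 libraries, among the 11039 genes averaging 5 CPM or more, were HOXA5 (Pearson's r = 0.917), SETDB1 (0.908), RIC8B (0.901), GPCPD1 (0.899) and ETFBKMT (0.898). Those closest to AHCY were ATP6V0B (0.989), LAMTOR4 (0.986) and NDUFB2 (0.986), and without R1 −Met+Hcy replicate 3 their r was 0.911 to 0.931. These are descriptions over libraries that share group, depth and base composition, so no p-value is given.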

How the data were processed

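RNA of 12 libraries, 3 in each of 4 groups, was analysed. The authors quantified reads with kallisto 0.48.0 against GRCh38, per the submitters' processing notes, and deposited estimated counts per Ensembl gene as whole numbers without scaling for library size, so no further rounding was needed. The annotation release is not given in the sources used here. Counts were tested in R 4.3.3 with edgeR 4.0.16 (TMM, summed count of at least 10, 1 quasi-likelihood model with 4 group means, p-values adjusted by Benjamini-Hochberg over all genes), and a gene passed at an adjusted p-value under 0.05. DESeq2, the tool of the authors' methods, served as an alternative (1.42.0). The other alternatives were the libraries compared alone, RLE scaling, other filters, a replicate block, robust estimation, identical copies counted once, removal of the GC trend, a fold change threshold of 1 on the log2 scale, and each library left out. GC content was known for 92.4% of the genes tested. CPM were computed from column sums. Ratios used a prior count of 0.5 and an exact permutation of the medium within lines. The scripts were tested on simulated data.

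The 7 genes, the lists and the tests were chosen with earlier results of these data known. Genes of the lists are given values where they passed in any of the 5 comparisons, at most 4 a list by the lowest p-value in HEK293T cells, and the genes most like MAT2A (5) and AHCY (3) are named by Pearson's r. The values of 1 gene of these lists are not reported here. At 12664158 to 18771349 counts a library, 3 counts are 0.16 to 0.237 CPM. This covers counting error only. The other libraries and assays of the study were not analysed here.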

Additional observations from a re-analysis of the deposited data

Results flagged for a closer look

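Over all 12 libraries the response of CTH to the medium differed between the lines by a test of the difference itself, with a difference of log2 fold changes, R1 minus HEK293T, of -1.60 (edgeR's quasi-likelihood test, adjusted p = 0.0459). All 11 fits that left out 1 library other than R1 −Met+Hcy replicate 3 lost this call, with differences between -1.68 and -1.55 and adjusted p-values of up to 0.223, and the fit without that library kept it at -1.55 (adjusted p = 0.00291). The call was also lost with no filter, with the replicate block, with identical copies counted once and with the GC trend removed together with the block, so in 15 of 23 alternatives. The log2 fold change itself was 1.93 in HEK293T and 0.33 in R1 cells, and DESeq2 gave a difference of -1.59 (adjusted p = 2.29e-09).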

How the results depend on the processing

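The number of the 7 genes that passed moved by more than 1.5 times as follows. In HEK293T cells it went from 2 to 5 with only the libraries compared and with the GC trend removed and R1 −Met+Hcy replicate 3 left out, to 1 with the fold change threshold, and to between 1 and 3 with 1 library left out. In R1 cells it went from 1 to 0 with only the libraries compared and to between 0 and 1 with 1 library left out. For the difference of the responses it went from 0 to 1 with the GC trend removed and that library left out. Between lines in +Met it went from 2 to 1 with RLE scaling, no filter, robust estimation, the replicate block, and the block with the GC trend removed, to 0 with column sums and with the fold change threshold, and to between 0 and 3 with 1 library left out. Between lines in −Met+Hcy it went from 1 to 0 with the replicate block, only the libraries compared and the fold change threshold, and to between 0 and 1 with 1 library left out. With a replicate block the ratio MAT2A to MAT2B differed by 2.19 and the ratio MAT2A to AHCY by 2.27 (exact sign-flip permutation, adjusted p = 0.0469). Over all genes, calls in HEK293T cells were 1207, with DESeq2 2237, with the block 618, with only the libraries compared 5562 and without R1 −Met+Hcy replicate 3 4731. In R1 cells they were 1, 40, 1, 0 and 3, for the difference 10, with DESeq2 245, with the block 0 and without that library 288, between lines in +Met 1745, 2884, 1122, 4865 and 5584, and in −Met+Hcy 2395, 3543, 1659, 498 and 5168.

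Among the results followed through all alternatives, signs turned for AHCYL2 in HEK293T cells and, between lines in +Met, for AHCYL1 and METTL16. AHCYL2 was at 0.14 with column sums and at -0.41 to 0.079 with 1 library left out. AHCYL1 was at 0.31 and at -0.11 to 0.019, and METTL16 at 0.18 with column sums. For the medium in R1 cells only MAT2A and METTL16 were followed in this way, and signs turned elsewhere too. With column sums ADK in R1 cells went from 0.01 to -0.037, and the AHCYL2 difference of the responses from 0.01 to -0.30. The median of the genes described here in R1 cells went from -0.018 to 0.24 without R1 +Met replicate 2. Same-numbered libraries correlated at -0.718 to 0.594, with 6 of 18 pairs over 0.1, so the numbers were not taken to pair the libraries. The cause of these changes was not tested, and neither was the part of the fewer degrees of freedom in fits with fewer libraries. The common dispersion of 0.109 was 0.0349 without R1 −Met+Hcy replicate 3, and this spread limits what the other 11 libraries can show.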
